A study of Mus musculus with 16 samples.

Results

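The genes described here encode subunits of respiratory complexes II to V, the part of the mitochondrial respiratory chain that follows complex I. They were taken by symbol, as all genes with a single annotated symbol among Sdha to Sdhd, Cyc1, those beginning with Uqcr or Atp5, and those beginning with Cox, a digit from 4 to 8 and a letter a to c. The rule found 46 of the 22180 genes on the array, 2 of them annotated as pseudogenes, Atp5c1-ps and Uqcrh-ps1. Of these, 42 were bright enough to be tested. Tested genes were those whose highest group mean exceeded 3.55 on the log2 scale, and the 42 exceeded it in each of the 4 groups, so none was admitted by 1 group alone. The 4 left out were both pseudogenes and Cox7b2 and Cox8c, isoforms known from testis.

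Gene expression had been measured on 16 arrays of regulatory T (Treg) cells, the CD4+ T cells that restrain immune responses, from C57BL/6 mice. Of the 4 groups of 4 arrays, 2 came from Atg7+/flFoxp3-Cre mice, labelled Atg7+/-, and 2 from Atg7fl/flFoxp3-Cre mice, labelled Atg7-/-. Atg7 is the E1-like enzyme of autophagy, the route by which cells degrade their own components, mitochondria included. In each genotype 1 group was untreated and 1 came from mice injected intraperitoneally with rapamycin, an inhibitor of the kinase mTOR, at 4 mg per kg daily for 5 days. All groups shared the Foxp3-driven Cre and at least 1 floxed Atg7 allele, the controls included, and no group without Cre was analysed here. All cells were sorted as CD4+Foxp3-YFP+ out of spleen and peripheral lymph nodes, and were given 4 h of stimulation through CD3 and CD28. Whether the arrays of a group stand for separate mice is not in the labels, and the p-values therefore cover only the spread among the samples, part of which may be technical.

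Complex II, succinate dehydrogenase, passes electrons from succinate to ubiquinone and is also an enzyme of the citric acid cycle. Complex III passes them from ubiquinol to cytochrome c, and complex IV, cytochrome c oxidase, from cytochrome c to oxygen. Complexes III and IV pump protons across the inner membrane, and complex V, the ATP synthase, lets the protons return through a rotating ring and makes ATP in its F1 head. All subunits of complex II are encoded in the nucleus, whereas complexes III, IV and V also hold subunits encoded by mitochondrial DNA. Treg cells are known to rely on oxidative metabolism. The tested genes comprised 4 of complex II, 8 of complex III, 13 of complex IV and 17 of complex V, counting with complex IV the supercomplex factor Cox7a2l.

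Nuclear genes of the respiratory chain are known targets of the transcription factors NRF1 and GABP, an ETS factor, so the promoters of the genes that the results turn on were read for their core motifs. RefSeq windows (GRCm38.p6) from 250 bases before to 50 bases after the start were at hand for 35 of the 46 genes. The NRF1 core (the bases GCGCA, any base, then GCGC), searched on both strands, was in 10 of the 35 (28.57%), and in 5.188% of the 27025 genes with a window. The ETS core CCGGAAG, also on both strands, was in 13 of the 35 (37.14%), and in 9.928% of the genes with a window. A window held either core in 19 genes, both in 4 and neither in 16. The median GC content was 56.5% in the windows of these genes and 52.67% over all, and its part in the motif shares was not tested. The 4 windows printed here belong to genes called in a rapamycin comparison and are given on the minus strand, 5′ to 3′. Capitals mark matches to either core; Atp5h, a peripheral stalk subunit of ATP synthase, and Sdhd, a membrane anchor of succinate dehydrogenase, hold both, with first bases at -141 and -38 and at -79 and -46 from the start. Cox7a2, a cytochrome oxidase subunit, and Cox7a2l hold neither in these 300 bases.
Atp5h, chr11:115419870-115420169: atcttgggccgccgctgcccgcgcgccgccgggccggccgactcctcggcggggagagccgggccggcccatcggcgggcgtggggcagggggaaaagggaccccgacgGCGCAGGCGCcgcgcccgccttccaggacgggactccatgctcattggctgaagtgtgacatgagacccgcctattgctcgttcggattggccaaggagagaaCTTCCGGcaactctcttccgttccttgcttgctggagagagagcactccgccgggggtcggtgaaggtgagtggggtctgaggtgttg
Sdhd, chr9:50603800-50604099: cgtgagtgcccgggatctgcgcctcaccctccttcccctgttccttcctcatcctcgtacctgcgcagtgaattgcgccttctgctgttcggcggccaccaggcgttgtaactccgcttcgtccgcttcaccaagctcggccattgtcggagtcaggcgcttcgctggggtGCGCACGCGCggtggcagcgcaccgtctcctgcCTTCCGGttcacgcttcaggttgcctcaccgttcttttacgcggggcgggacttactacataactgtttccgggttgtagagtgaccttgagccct
Cox7a2, chr9:79759804-79760103: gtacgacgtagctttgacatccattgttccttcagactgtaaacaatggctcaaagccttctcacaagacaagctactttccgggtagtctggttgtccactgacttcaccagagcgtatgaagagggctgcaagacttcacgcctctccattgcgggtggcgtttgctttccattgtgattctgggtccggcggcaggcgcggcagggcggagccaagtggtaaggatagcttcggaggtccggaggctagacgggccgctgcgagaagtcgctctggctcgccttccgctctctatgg
Cox7a2l, chr17:83514284-83514583: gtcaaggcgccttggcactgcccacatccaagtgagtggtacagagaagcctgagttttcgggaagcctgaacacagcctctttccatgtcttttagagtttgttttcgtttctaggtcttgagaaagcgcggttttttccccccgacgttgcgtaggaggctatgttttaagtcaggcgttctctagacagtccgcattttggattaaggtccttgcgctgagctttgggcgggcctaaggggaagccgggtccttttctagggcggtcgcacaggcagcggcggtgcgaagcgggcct

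The sorted cells carried their defining markers. Foxp3, the transcription factor of Treg cells, averaged 11.11 over the 16 arrays, Il2ra 12.06 and Ctla4 10.64. Foxp3 had a log2 fold change of Atg7-/- over Atg7+/- cells of -0.40 untreated (limma adjusted p = 0.0355), and of -0.35 under rapamycin (adjusted p = 0.0662). For Atg7 itself these values were -0.28 and -0.30 (adjusted p = 0.299 and 0.232), and where its probes lie relative to the deleted part is not given, so it checks nothing. The mean level of 8 CD8 T and NK cell markers, of which Klrk1 was too dim to be tested, ran from 4.82 to 5.07 and from 4.95 to 5.14 on the untreated Atg7+/- and Atg7-/- arrays, and from 4.59 to 4.79 and from 4.90 to 4.95 under rapamycin. Of the other 7, 1 was called higher in Atg7-/- cells untreated and 2 under rapamycin. Of 8 conventional T cell markers 1 was called higher in each of those comparisons. Over all genes tested 3.14% and 3.24% were called in them. With rapamycin the mean level of the 7 Treg markers went from 10.70 to 10.81 untreated to 10.61 to 10.67 in Atg7+/- cells, and from 10.66 to 10.83 to 10.45 to 10.63 in Atg7-/- cells, with no overlap in either. Among them 1 was called higher and 2 lower in Atg7+/- cells, and 1 higher and 3 lower in Atg7-/- cells. Of the conventional T cell markers 2 were called higher and 3 lower with rapamycin in Atg7+/- cells, and 3 higher and 4 lower in Atg7-/- cells, and 1 of 4 B cell markers tested was called lower in each. Of all genes tested 14.1% and 20.0% were called with rapamycin in Atg7+/- and Atg7-/- cells. The part of these marker shifts in the genotype and rapamycin results was not tested. In a pooled RNA sample, fewer cells of a type and less RNA per cell cannot be told apart. Rapamycin Atg7-/- replicate 3 stood highest of its group over the subunit genes. The main counts, medians and correlations that involve its group are given without it as well. Values printed only once are from all arrays, among them the marker calls, the counts at an unadjusted p under 0.05 and the values of single complexes.

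Across the 42 genes the clearest pattern was between genotypes. Each array was summarised by the mean, over the 42 genes, of its log2 difference from the gene's 16-array mean. This value was -0.103 to -0.0315 on the untreated Atg7+/- arrays and 0.0309 to 0.0754 on the untreated Atg7-/- arrays. Under rapamycin it was -0.171 to -0.0239 in Atg7+/- cells and 0.0489 to 0.213 in Atg7-/- cells. The 4 Atg7-/- arrays thus lay above the 4 Atg7+/- arrays in either treatment, while the 2 groups of 1 genotype overlapped. The upper end, 0.213, was Atg7-/- rapamycin replicate 3, and the other 3 arrays of that group read 0.0489 to 0.0775. The same mean over all 16760 genes tested ran from -0.0372 to 0.0429 across the 16 arrays, and it too was higher on every untreated Atg7-/- array than on every untreated Atg7+/- array.

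**Figure D1:**
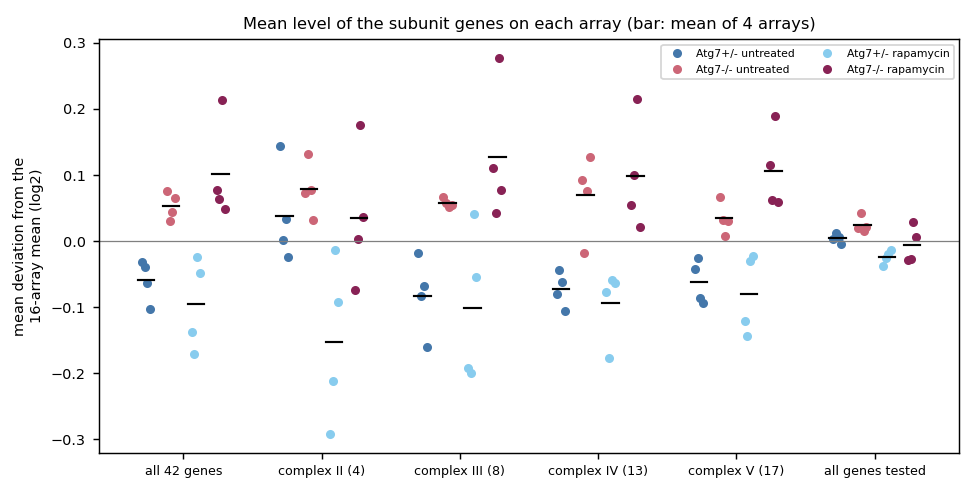
Mean log2 deviation of each array from the 16-array mean of each gene (vertical axis), for all 42 subunit genes, for each complex and for all genes tested; each point is 1 array, coloured by group, and bars are means of 4 arrays. For all 42 genes the Atg7-/- arrays (0.0309 to 0.213) sit above the Atg7+/- arrays (-0.171 to -0.0239).

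In untreated cells the comparison concerns the effect of Atg7 loss on these genes. A total of 37 of the 42 genes had a log2 fold change above 0, where 55.5% of all genes tested did. Their median was 0.12, against 0.022 over all genes. The 42 genes were also brighter, with a median log2 signal of 9.30 against 5.56 over all genes tested, and 24 lay above 9. The part of brightness in the shares given here and for the other comparisons was not tested. Single genes rarely passed the test: 1 of 42 was called higher and none lower at an adjusted p under 0.05, where 3.14% of all genes were called (1.75% higher and 1.39% lower). At an unadjusted p under 0.05 there were 8 of the 42, and 2910 of the 16760 genes tested, which is a similar share. With quantile normalization 36 of the 42 were above 0 with a median of 0.099, and the split of calls over all genes turned from 294 higher and 233 lower to 343 and 387. The 4 arrays of Atg7-/- cells were all above those of Atg7+/- cells for 14 genes (8.17% of all genes) and all below for 1 (5.97%).

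The gene called was Cox7a2, the widely expressed isoform of cytochrome oxidase subunit 7a. It read 9.89, 9.92, 9.94 and 9.86 in untreated Atg7+/- cells and 10.17, 10.15, 10.20 and 10.31 in untreated Atg7-/- cells. The groups were apart by 0.30 (SE 0.0722, 1.23-fold, limma adjusted p = 0.0282). The call was lost without any 1 of Atg7+/- replicates 1 to 4 or Atg7-/- replicates 1, 3 and 4, at adjusted p = 0.0540 to 0.0804.

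In complex V, Atp5e, the epsilon subunit of the F1 central stalk, had the smallest p. It read 11.73, 11.72, 11.75 and 11.57 in Atg7+/- and 11.92, 11.98, 11.94 and 12.08 in Atg7-/- cells, with no overlap (log2 fold change 0.28, SE 0.0815, adjusted p = 0.0645). A second Atp5e probe set had a log2 fold change of 0.26. Uqcrfs1, the Rieske iron-sulfur protein that takes electrons from ubiquinol in complex III, read 7.34, 7.03, 7.23 and 7.07 against 7.55, 7.48, 7.48 and 7.35, also with no overlap (0.30, SE 0.106, adjusted p = 0.134). Of the 5 genes below 0, Atp5j2, subunit f of the ATP synthase membrane part, was the 1 whose arrays did not overlap. It read 6.43, 6.53, 6.18 and 6.13 in Atg7+/- and 5.64, 6.05, 5.94 and 5.66 in Atg7-/- cells (-0.49, SE 0.154, adjusted p = 0.0900), which is the largest difference of the 42 in size and did not pass the test.

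Under rapamycin the same comparison asks whether the genotypes differ when mTOR has been inhibited in the mice. Here 39 of the 42 genes had a log2 fold change above 0, where 53.6% of all genes did, and the median was 0.22 against 0.017 over all genes. Without Atg7-/- replicate 3 these values were 38 of 42 and 0.19. With quantile normalization, which turned the split of calls over all genes from 320 higher and 223 lower to 324 and 341, they were 39 of 42 and 0.18. Of the 42, 2 were called higher and none lower, where 3.24% of all genes were called (1.91% higher and 1.33% lower). An unadjusted p under 0.05 was found for 24 of the 42, and for 3067 of the 16760 genes tested. The count of calls depended on the fit: it was 11 with trended and robust variance, 7 with the dim-gene filter at the median of all values and 0 with only the arrays compared, where 886, 820 and 20 genes were called in all, in place of 543. The arrays did not overlap for 16 genes, all higher in Atg7-/- cells (6.01% of all genes were all above and 3.76% all below). Without Atg7-/- replicate 3 no gene of the 42 was called, where 1.71% of all genes were, and the 3 other arrays were all above the Atg7+/- arrays for 17 (7.45% of all genes) and all below for none (5.84%).

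Both calls were in complex IV. Cox6b1, a subunit on the intermembrane face of cytochrome oxidase, read 9.28, 9.24, 9.58 and 9.37 in Atg7+/- and 9.67, 9.64, 9.96 and 9.72 in Atg7-/- cells under rapamycin. The lowest Atg7-/- array lay just above the highest Atg7+/- array, and the genotypes differed by 0.38 (SE 0.0954, 1.30-fold, limma adjusted p = 0.0388). Cox8a, the widely expressed isoform of cytochrome oxidase subunit 8, read 10.07, 10.13, 10.26 and 10.26 in Atg7+/- and 10.50, 10.37, 10.62 and 10.64 in Atg7-/- cells (0.35, SE 0.0936, 1.28-fold, adjusted p = 0.0479). In untreated cells their genotype differences were 0.22 (adjusted p = 0.229) and 0.27 (adjusted p = 0.131). Neither call was firm. Cox6b1 lost it in 9 of the 16 fits that left out 1 array, at adjusted p = 0.0504 to 0.149: without untreated Atg7+/- replicate 1 or 2, untreated Atg7-/- 2 or 3, rapamycin Atg7+/- 1, 2 or 4, or rapamycin Atg7-/- 3 or 4. Cox8a lost it in 12, at 0.0547 to 0.151, and kept it without untreated Atg7-/- replicate 2 or 4, rapamycin Atg7+/- 3 or rapamycin Atg7-/- 2. With only the arrays compared the values were 0.160 and 0.144. Cox8a also lost its call without the dim-gene filter (0.0627), with quantile normalization (0.0652), with array weights (0.0548) and after removal of a gene length trend (0.0627).

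In complex V the smallest p was that of Atp5j, coupling factor 6 of the peripheral stalk, at 0.30 (SE 0.0812, adjusted p = 0.0536). In complex III it was that of Uqcr11, a small subunit of the complex, which read 7.61, 7.69, 8.02 and 8.06 in Atg7+/- and 8.26, 8.15, 8.23 and 8.11 in Atg7-/- cells (0.35, SE 0.107, adjusted p = 0.0822). All 4 tested peripheral stalk genes had an unadjusted p under 0.05, with log2 fold changes of 0.24 to 0.30, and none was called. Of all 16760 genes tested 3067 had such a p. Atg7-/- replicate 3 was the highest array of its group for each of the 4 stalk genes, and the counts and medians given here include it. The 8 widely expressed complex IV genes had a median of 0.27, all above 0, and 6 had an unadjusted p under 0.05. The 4 muscle or testis isoforms of complex IV that were tested had a median of 0.040.

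**Figure D2:**
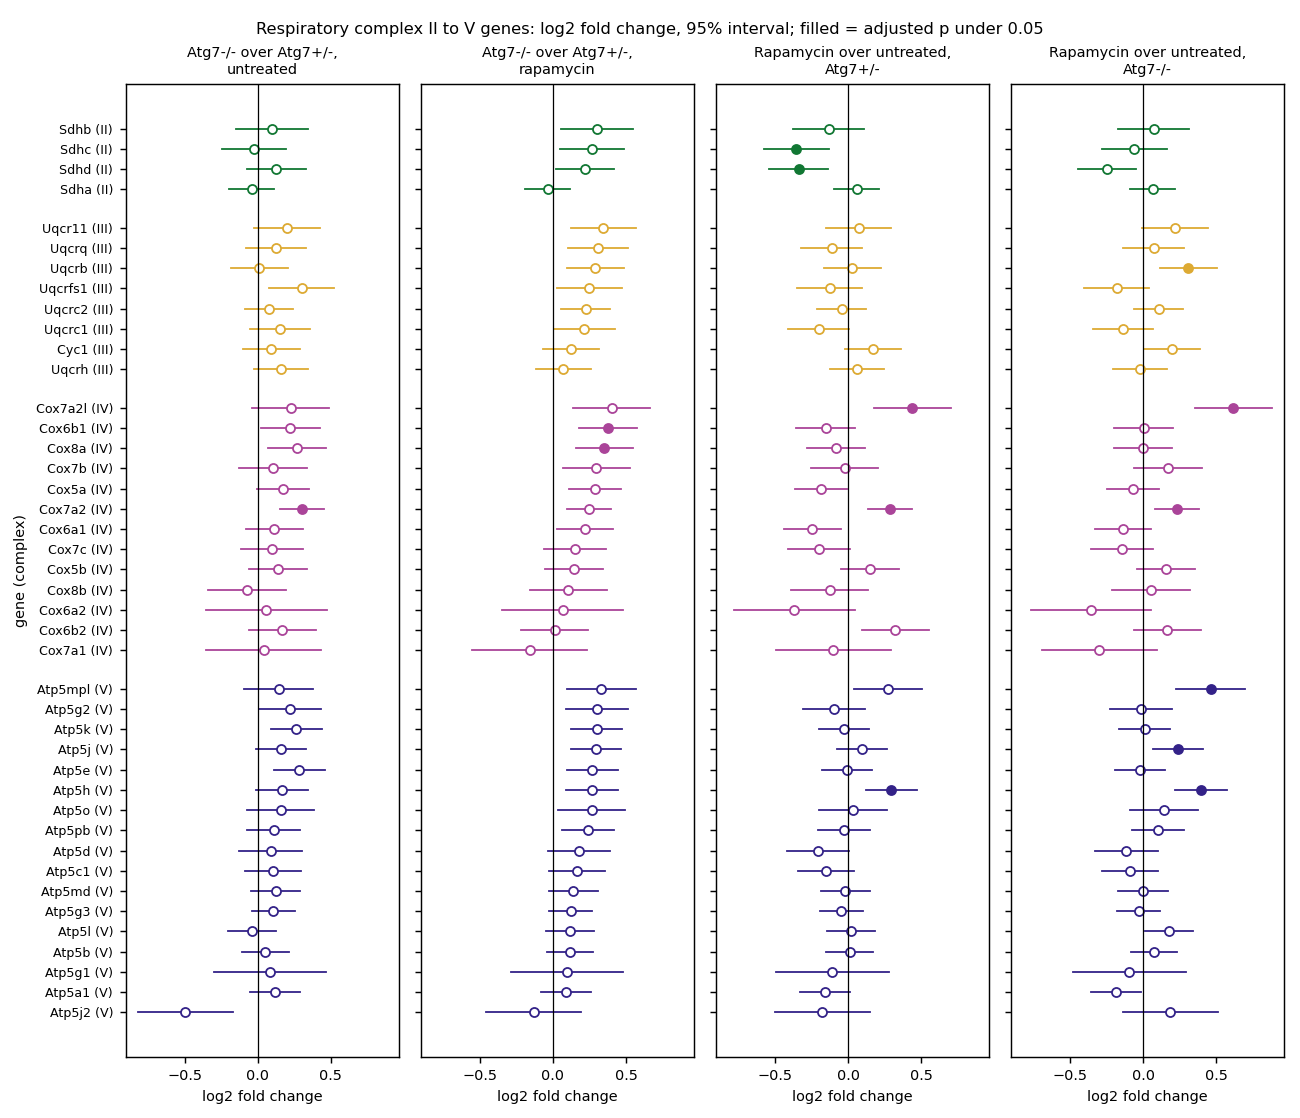
Log2 fold change (horizontal axis) of each of the 42 tested genes, by complex, in the 4 comparisons; points are estimates from 4 arrays against 4, bars are 95% intervals, and filled points are genes called at an adjusted p under 0.05. Points lie mostly right of 0 in both genotype comparisons (37 and 39 of 42) and on either side of it in the rapamycin comparisons.

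**Figure D3:**
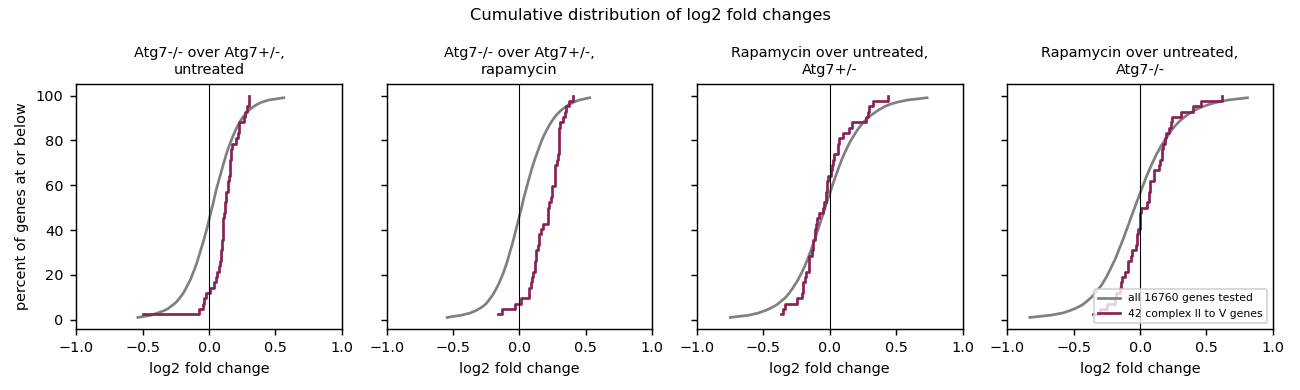
Percent of genes (vertical axis) with a log2 fold change at or below the value on the horizontal axis, for the 42 subunit genes and for all 16760 genes tested, in the 4 comparisons. The subunit curve lies to the right of the curve of all genes in the genotype comparisons, with medians of 0.12 and 0.22 against 0.022 and 0.017, and with medians of -0.045 and 0.031 against -0.035 and -0.040 with rapamycin in Atg7+/- and Atg7-/- cells.

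The 2 genotype comparisons share no arrays. Over the 42 genes their log2 fold changes had a Pearson correlation of 0.62 (Spearman 0.58) as a description across genes, which are not independent and share arrays within each comparison, and 0.49 over all genes tested. The sign was the same for 38 of the 42, above 0 in both for 36, and for 63.4% of all genes. Without Atg7-/- rapamycin replicate 3 the correlation was 0.55 (Spearman 0.58), with the same sign for 37. The 2 below 0 in both were Atp5j2 (-0.49 and -0.13) and Sdha, the flavoprotein of succinate dehydrogenase (-0.042 and -0.036).

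Rapamycin in Atg7+/- mice addressed how inhibition of mTOR alters these genes where 1 Atg7 allele stays intact. The genes did not move as a group. The median was -0.045, against -0.035 over all genes, and 15 of 42 were above 0, where 43.7% of all genes were. With quantile normalization the median was 0.00061, 21 of 42 were above 0, and the split of calls over all genes turned from 1011 higher and 1359 lower to 1342 and 1320. Of the 42, 3 were called higher and 2 lower, where 14.1% of all genes were called (6.03% higher and 8.11% lower). The arrays were all above for 5 genes (9.64% of all genes) and all below for 3 (13.1%). These shares lay near those of all genes.

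Rapamycin in Atg7-/- mice addressed the same in cells without intact Atg7. The median was 0.031, against -0.040 over all genes, and 23 of 42 were above 0, where again 43.7% of all genes were. Of the 42, 6 were called higher and none lower, where 20.0% of all genes were called (8.83% higher and 11.1% lower). The arrays were all above for 7 (8.76% of all genes) and all below for 1 (11.6%). With quantile normalization the median was 0.066, 26 of 42 were above 0, and the split of calls over all genes turned from 1480 higher and 1867 lower to 1778 and 1686. These values also leaned on Atg7-/- rapamycin replicate 3. Without it the median was -0.0055, 21 of 42 were above 0, and the remaining arrays were all above for 7 (11.8% of all genes) and all below for 7 (17.3%). Then 3 genes were called higher, Atp5h, Atp5mpl and Cox7a2l, and 1 lower, Uqcrfs1 (-0.29, adjusted p = 0.0396; -0.18 and 0.239 with all arrays), where 20.4% of all genes were called.

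Over the 42 genes the rapamycin log2 fold changes in the 2 genotypes, which share no arrays, had a Pearson correlation of 0.83 (Spearman 0.79), again as a description across genes, and 0.75 over all genes tested. The sign was the same for 32 of 42, above 0 in both for 14 and below 0 in both for 18, and for 75.3% of all genes. Without Atg7-/- rapamycin replicate 3 the correlation was 0.80 (Spearman 0.78), with the same sign for 34.

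**Figure D4:**
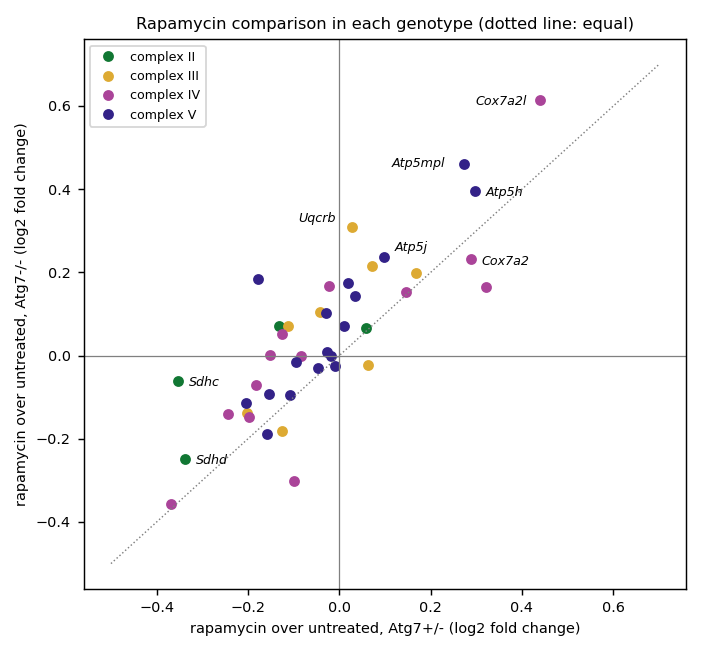
Log2 fold change with rapamycin in Atg7+/- cells (horizontal axis) and in Atg7-/- cells (vertical axis) for the 42 tested genes, coloured by complex; the dotted line marks equal values and labels name genes called in either comparison. Cox7a2l, Atp5mpl, Atp5h and Cox7a2 sit at the upper right, and Sdhd and Sdhc on the lower left.

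Cox7a2l had the largest rapamycin difference of the 42 in both genotypes. It encodes a relative of subunit 7a that is known in mice to tether complex III to complex IV in supercomplexes, and C57BL/6 mice are known to carry a shortened form of the protein. It read 8.25, 8.63, 8.52 and 8.39 in untreated and 8.67, 8.91, 8.98 and 8.99 in rapamycin Atg7+/- cells. The groups did not overlap, and the rise was 0.44 (SE 0.126, 1.36-fold, limma adjusted p = 0.0265). In Atg7-/- cells it read 8.39, 8.74, 8.80 and 8.75 untreated and 9.24, 9.37, 9.54 and 8.999 with rapamycin, a rise of 0.62 (SE 0.126, 1.53-fold, adjusted p = 0.00252), again with no overlap. The first untreated Atg7-/- array lay well below the other 3. In Atg7-/- cells the call held in all 16 fits without 1 array, at adjusted p = 0.00142 to 0.0110. In Atg7+/- cells it was lost without untreated replicate 1 or 4 or rapamycin replicate 2, 3 or 4, at adjusted p = 0.0618 to 0.0829. The difference between the genotypes' rapamycin effects was 0.18 (95% interval -0.20 to 0.55, adjusted p = 0.897).

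Cox7a2, described above between untreated genotypes, was also called with rapamycin in both. In rapamycin Atg7+/- cells it read 10.20, 10.12, 10.20 and 10.24, a rise of 0.29 (SE 0.0722, 1.22-fold, adjusted p = 0.0134), and all 16 fits without 1 array kept the call (0.00957 to 0.0379). In rapamycin Atg7-/- cells it read 10.39, 10.39, 10.54 and 10.42, a rise of 0.23 (SE 0.0722, 1.17-fold, adjusted p = 0.0314). That call was lost without untreated Atg7-/- replicate 1, 2 or 3 or rapamycin Atg7-/- replicate 3 or 4 (0.0549 to 0.0756), and with only the arrays compared (0.111). The 4 groups formed 3 levels, lowest in untreated Atg7+/- cells, alike in untreated Atg7-/- and rapamycin Atg7+/- cells, where the arrays overlapped, and highest in rapamycin Atg7-/- cells. Under rapamycin the genotypes differed by 0.25 (adjusted p = 0.0686) with no overlap.

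Among the genes of ATP synthase, Atp5h, subunit d of the peripheral stalk, rose with rapamycin in both genotypes. It read 10.05, 10.12, 10.13 and 10.03 in untreated and 10.25, 10.23, 10.52 and 10.52 in rapamycin Atg7+/- cells (0.30, SE 0.0840, 1.23-fold, adjusted p = 0.0252), with the rapamycin arrays in 2 pairs. In Atg7-/- cells it read 10.29, 10.28, 10.22 and 10.20 untreated and 10.60, 10.62, 10.76 and 10.60 with rapamycin (0.40, SE 0.0840, 1.32-fold, adjusted p = 0.00321). No arrays overlapped in either. The Atg7-/- call held in all 16 fits without 1 array (0.00299 to 0.0102), and the Atg7+/- call was lost without untreated replicate 1 or 4 or rapamycin replicate 3 or 4 (0.0598 to 0.0802). A second, dimmer probe set of Atp5h had log2 fold changes of 0.094 and -0.060, and with the mean of both probe sets neither call was made (adjusted p = 0.0903 and 0.121).

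Atp5mpl, a small protein of the ATP synthase membrane part, rose in Atg7-/- cells. It read 10.20, 9.96, 10.06 and 10.25 untreated and 10.76, 10.43, 10.86 and 10.28 with rapamycin. The lowest rapamycin array was only just above the highest untreated one, and the rise was 0.46 (SE 0.112, 1.38-fold, adjusted p = 0.00751), held in all 16 fits without 1 array (0.00222 to 0.0271). In Atg7+/- cells it read 10.07, 9.96, 9.91 and 9.97 untreated and 10.33, 10.21, 10.19 and 10.26 with rapamycin, with no overlap, or 0.27 on the log2 scale (SE 0.112, adjusted p = 0.112). The difference between the effects was 0.19 (95% interval -0.14 to 0.52).

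Atp5j read 7.10, 7.15, 7.14 and 7.24 in untreated and 7.44, 7.34, 7.54 and 7.26 in rapamycin Atg7-/- cells, with no overlap (0.24, SE 0.0812, 1.18-fold, adjusted p = 0.0469). That call was kept in 3 of 16 fits without 1 array, those without rapamycin Atg7+/- replicate 1, untreated Atg7-/- replicate 4 or rapamycin Atg7-/- replicate 4, and the other 13 gave 0.0517 to 0.116. It was also lost without the dim-gene filter (0.0601), with quantile normalization (0.0595), trended and robust variance (0.0546) or array weights (0.0779), and with only the arrays compared (0.121). In Atg7+/- cells Atp5j read 6.98, 7.05, 6.91 and 7.07 untreated and 7.02, 7.05, 7.12 and 7.21 with rapamycin, which overlapped (0.10, adjusted p = 0.459).

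**Figure D5:**
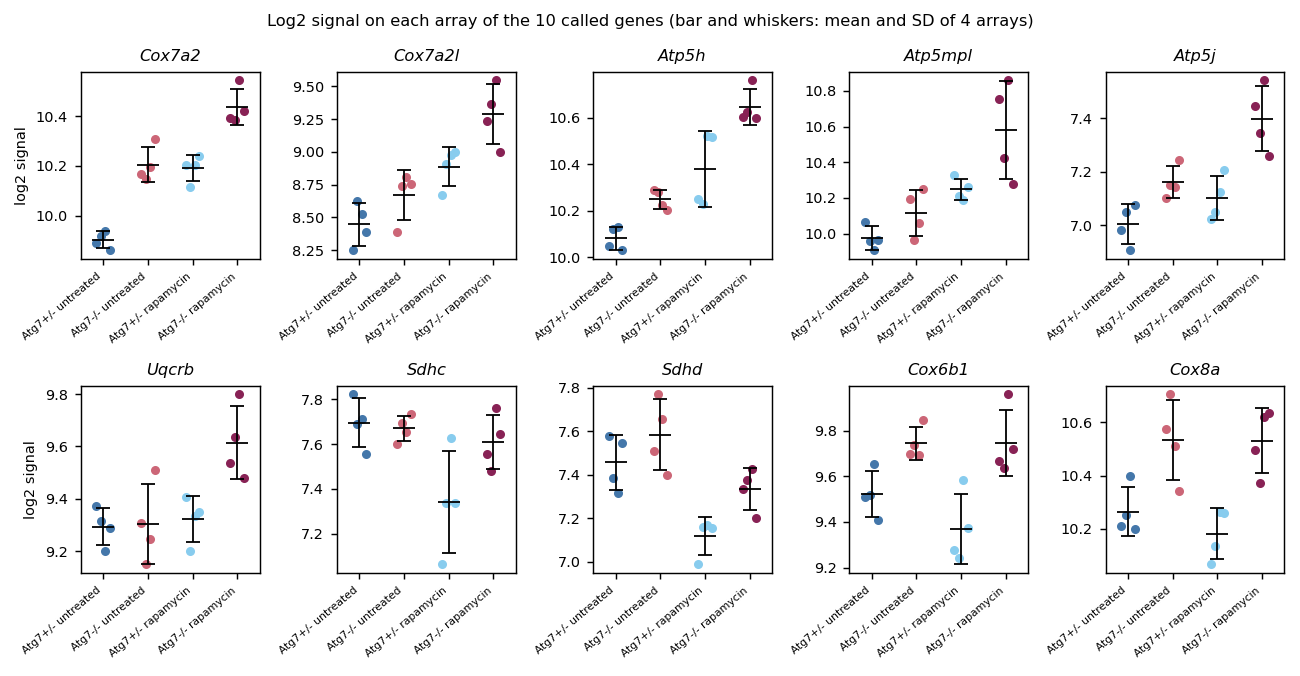
Log2 signal (vertical axis, its range set per gene) on each of the 16 arrays for the 10 genes called in any comparison; points are arrays by group, and bars with whiskers are means and SDs of 4 arrays. Cox7a2 climbs from 9.86 to 9.94 in untreated Atg7+/- cells to 10.39 to 10.54 in rapamycin Atg7-/- cells, while Sdhc and Sdhd are lowest in rapamycin Atg7+/- cells.

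The c subunit, the proton-carrying ring of ATP synthase, has 3 nuclear genes that are known to differ in their import signals and to encode the same mature protein. None was called in any comparison. Atp5g2 averaged 10.47 ± 0.129 and 10.69 ± 0.125 in untreated Atg7+/- and Atg7-/- cells and 10.37 ± 0.193 and 10.67 ± 0.0256 under rapamycin (SD, n = 4 each). Its genotype differences were 0.22 and 0.30 (adjusted p = 0.261 and 0.104), and its arrays did not overlap under rapamycin. Atp5g3 differed by 0.11 and 0.12 between genotypes (adjusted p = 0.476 and 0.382), and Atp5g1 by 0.084 and 0.098 (0.867 and 0.849). Rapamycin log2 fold changes of the 3 lay between -0.11 and -0.015 in both genotypes. In the F1 head and central stalk, none of 5 genes was called with rapamycin in either genotype. Over all genes 14.1% and 20.0% were called with rapamycin in Atg7+/- and Atg7-/- cells, and 3.14% and 3.24% between genotypes. The lack of calls among 3 and 5 genes therefore does not set them apart from all genes.

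Complex III gave 1 call. Uqcrb, the ubiquinone-binding protein of the complex, read 9.31, 9.15, 9.25 and 9.51 in untreated and 9.54, 9.64, 9.80 and 9.48 in rapamycin Atg7-/- cells. The ranges overlapped by 1 array, the highest untreated one, and the rise was 0.31 (SE 0.0930, 1.24-fold, limma adjusted p = 0.0265). It was lost without untreated Atg7-/- replicate 1, 2 or 3 or rapamycin Atg7-/- replicate 2 or 3 (0.0528 to 0.0821), and with only the arrays compared (0.0879). In Atg7+/- cells Uqcrb read 9.37, 9.31, 9.20 and 9.29 untreated and 9.41, 9.20, 9.34 and 9.35 with rapamycin (0.028, adjusted p = 0.877). The difference between the effects was 0.28 (95% interval 0.0033 to 0.56), the 1 gene of 42 with an unadjusted p under 0.05 for it, and its adjusted p was 0.792. In Atg7+/- cells the complex III gene with the smallest rapamycin p was Uqcrc1, a core protein of the complex (-0.20, SE 0.0978, adjusted p = 0.181).

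Both genes called lower with rapamycin in Atg7+/- cells were the membrane anchors of complex II, Sdhc and Sdhd, and its catalytic subunits did not pass the test. Sdhd read 7.58, 7.39, 7.31 and 7.55 in untreated and 6.99, 7.16, 7.17 and 7.16 in rapamycin Atg7+/- cells, with no overlap (-0.34, SE 0.0951, 1.26-fold lower, adjusted p = 0.0241). Sdhc read 7.82, 7.69, 7.71 and 7.56 untreated and 7.07, 7.34, 7.63 and 7.34 with rapamycin, where the third rapamycin array lay within the untreated range (-0.35, SE 0.105, 1.28-fold lower, adjusted p = 0.0315). Sdhd lost its call without untreated replicate 1 or 4 or rapamycin replicate 1 of Atg7+/- cells (0.0684 to 0.0763). Sdhc lost it without untreated replicate 1, 2 or 3 or rapamycin replicate 1, 2 or 4 (0.0620 to 0.109), and with only the arrays compared (0.0598).

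In Atg7-/- cells Sdhd read 7.51, 7.77, 7.66 and 7.40 untreated and 7.34, 7.38, 7.43 and 7.20 with rapamycin (-0.25, SE 0.0951, adjusted p = 0.0735), and Sdhc 7.60, 7.69, 7.65 and 7.73 and then 7.55, 7.48, 7.76 and 7.64 (-0.06, SE 0.105, adjusted p = 0.722). The differences between the genotypes' effects were 0.090 (95% interval -0.19 to 0.37) for Sdhd and 0.29 (-0.019 to 0.60) for Sdhc, so no difference was established for either. Sdhb, the iron-sulfur subunit, had rapamycin log2 fold changes of -0.13 and 0.071 in Atg7+/- and Atg7-/- cells (adjusted p = 0.489 and 0.706), and Sdha 0.059 and 0.065 (0.636 and 0.563). Between untreated genotypes the 4 lay from -0.042 (Sdha) to 0.13 (Sdhd). Between genotypes under rapamycin Sdhb, Sdhc and Sdhd had log2 fold changes of 0.30, 0.27 and 0.22, which did not pass the test (adjusted p = 0.167, 0.172 and 0.226).

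The test of the difference between the rapamycin effects in the 2 genotypes called none of the 42 genes. It called 0.0% of all genes tested, although 1052 had an unadjusted p under 0.05. The median over the 42 was 0.086, against 0.0029 over all genes, with 35 above 0 where 50.7% of all genes were. Over the fits without 1 array the median ranged from 0.048, with 32 above 0 (without rapamycin Atg7+/- replicate 1), to 0.13, with 36 above 0 (without rapamycin Atg7+/- replicate 3). Without Atg7-/- rapamycin replicate 3 it was 0.061 and 29 were above 0. The smallest p per complex belonged to Uqcrb, to Sdhc, to Atp5j2 in complex V (0.36, 95% interval -0.096 to 0.82, adjusted p = 0.808) and to Cox7b, a membrane subunit of complex IV (0.19, -0.14 to 0.52, adjusted p = 0.870). A second Cox7b probe set had rapamycin log2 fold changes of 0.19 in both genotypes, where the brighter one had -0.023 and 0.17.

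The 4 tested tissue isoforms of complex IV gave no calls. Over all genes 3.14% and 3.24% were called between genotypes and 14.1% and 20.0% with rapamycin. Cox6a2, Cox7a1 and Cox8b are the heart and skeletal muscle forms of their subunits and Cox6b2 is a testis form. Their 16-array means were 5.54, 4.41, 3.91 and 4.69. The 4 muscle markers on the array averaged 4.22 to 4.71 on any array, and none was called in any comparison. Cox6b2 came nearest to a call, with rapamycin in Atg7+/- cells (0.32, SE 0.108, adjusted p = 0.0550).

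Other genes of the chain were set beside these. Of 32 nuclear complex I subunit genes tested, 1 was called higher between untreated genotypes, Ndufa8 (0.41, adjusted p = 0.0430), and 8 under rapamycin, among them Ndufb3 (0.53), Ndufc2 (0.46), Ndufb8 (0.45) and Ndufa1 (0.41). With rapamycin 1 rose in Atg7+/- cells, Ndufb3 (0.46), and 12 in Atg7-/- cells, led by Ndufb11 (0.76), Ndufa7 (0.67), Ndufb3 (0.62) and Ndufa2 (0.58), and none fell in any comparison. The shares called over all genes were 3.14% and 3.24% between genotypes and 14.1% and 20.0% with rapamycin. Without Atg7-/- rapamycin replicate 3 the counts were 2 between genotypes under rapamycin, where Ndufb3 (adjusted p = 0.0960) and Ndufa1 (0.0847) lost their calls, and 9 with rapamycin in Atg7-/- cells, with medians of 0.25 and 0.16. With all arrays their medians were 0.18 and 0.31 between genotypes and 0.11 and 0.21 with rapamycin, each above that of the complex II to V genes. The difference between these gene groups was not tested.

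The 10 mitochondrially encoded subunit genes tested had none called. Over all genes 3.14% and 3.24% were called between genotypes and 14.1% and 20.0% with rapamycin. The group means of the 10 ran from 11.13 to 12.36, and the part of this brightness was not tested. Their medians were -0.12 and 0.018 between genotypes and -0.023 and 0.12 with rapamycin. Without Atg7-/- rapamycin replicate 3 they were 0.0035 between genotypes under rapamycin and 0.12 with rapamycin in Atg7-/- cells. ND2, a complex I subunit, had the smallest p between untreated genotypes, at -0.18 (adjusted p = 0.254). In untreated cells the nuclear genes had a positive median and the mitochondrial ones a negative one, and this difference was not tested.

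Of 37 assembly factor genes of complexes II to V, 1 was called higher between untreated genotypes and 3 under rapamycin. With rapamycin 4 rose and 3 fell in Atg7+/- cells, and 8 rose and 2 fell in Atg7-/- cells. Over all genes 3.14%, 3.24%, 14.1% and 20.0% were called in these comparisons, and the rapamycin counts of both directions together lay near that background. By direction the counts in Atg7-/- cells leaned higher, where 8.83% of all genes were called higher and 11.1% lower. The median of the 37 was 0.14 there, against -0.040 over all genes, and 0.12 without Atg7-/- rapamycin replicate 3. Between genotypes the medians of the 37 were 0.13 untreated and 0.20 under rapamycin, where the 42 subunit genes had 0.12 and 0.22. A genotype median of this size was thus not particular to the subunit genes. Without Atg7-/- rapamycin replicate 3 the median of the 37 between genotypes under rapamycin was 0.18, and none of them was called. In the same fit 6 of the 37 rose and 3 fell with rapamycin in Atg7-/- cells. Those of complex II included Sdhaf3, a factor for the iron-sulfur subunit, higher in untreated Atg7-/- cells (0.48, adjusted p = 0.0400). Sdhaf4, a chaperone of the flavoprotein, rose with rapamycin in Atg7-/- cells (0.78, adjusted p = 0.00313) and was higher there than in rapamycin Atg7+/- cells (0.73, adjusted p = 0.0249, or 0.57 and 0.0690 without replicate 3). Sdhaf1, also for the iron-sulfur subunit, rose in Atg7-/- cells (0.49, adjusted p = 0.00846), and Sdhaf2, which attaches the flavin, fell in Atg7+/- cells (-0.42, adjusted p = 0.00524). Of the factors for complex IV, Cox16 rose in both genotypes (0.59 and 0.68, adjusted p = 0.00583 and 0.00137), Coa4 rose in Atg7-/- cells (0.52) and Cmc2 fell in Atg7+/- cells (-0.56). Hccs, which attaches haem to cytochromes c and c1, fell in Atg7+/- cells (-0.38). Cmc1 of complex IV and Uqcc2 of complex III were higher in Atg7-/- cells under rapamycin (0.43 and 0.42, or 0.36 and 0.35 without replicate 3, at adjusted p = 0.0936 and 0.128).

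Among 13 regulators of respiratory gene expression none was called between genotypes. With rapamycin Tfb1m, a methyltransferase of mitochondrial ribosomal RNA, rose in both genotypes (0.83 and 0.82, adjusted p = 0.00102 and 0.000650), as did Tfb2m, an initiation factor of mitochondrial transcription (0.66 and 0.71, 0.000116 and 3.02e-05). Ppargc1b, a coactivator of mitochondrial genes, fell in both (-0.52 and -0.63, 0.0126 and 0.00253). Tfam, which packages mitochondrial DNA, rose in Atg7-/- cells (0.40, adjusted p = 0.0145). In all 2 rose and 1 fell in Atg7+/- cells, and 3 rose and 2 fell in Atg7-/- cells (3 and 1 without rapamycin replicate 3), where 14.1% and 20.0% of all genes were called. The largest of these changes exceeded any of the 42 subunit genes. Nrf1, the factor of the first promoter motif above, had its smallest p between genotypes under rapamycin (-0.23, adjusted p = 0.133).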

How the data were processed

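Expression was measured on 16 arrays, 4 in each of 4 groups. Each array has 1 deposited log2 signal per probe set. The submitters' processing notes list RMA and Partek 6.6 but give no settings. Base 2 was assumed for the logarithm because RMA uses it; the file does not state one. RMA scales the arrays to 1 another, so most of a shift shared by most genes would not show. A small one remained in the deposited values. The mean deviation over all genes tested was -0.0046 to 0.013 on untreated Atg7+/- arrays and 0.016 to 0.043 on untreated Atg7-/- arrays.

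Of 41345 probe sets, 23521 had 1 gene symbol and stood for 22180 genes. For genes with several probe sets, 6 of them subunit genes, the brightest was used. The genes tested numbered 16760, those with a highest group mean above the 30th percentile of all values. Probe sets with several symbols were not used, 4 matching the rule among them. The symbol rule also does not take Cox4i1, Cox4i2, Ndufa4, Atpif1 and Dmac2l.

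With limma 3.58.1 (R 4.3.3), lmFit and eBayes at their defaults estimated 4 group means from the 16 arrays, leaving 12 residual degrees of freedom. Tests were two-sided, with Benjamini-Hochberg adjustment over the genes tested. The script was tested on simulated data. Arrays give no depth, so their number limits the precision. Sequences are RefSeq's.

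The subunit genes and the lists beside them were chosen with earlier results of these data known. Named were the subunit genes called in any comparison, those with the smallest p per complex and comparison, complex II, the c subunit genes and those not tested; from the lists, up to 4 called genes with the largest change, or else the 1 with the smallest p, with Foxp3 and Atg7. Replicate numbers appear in all groups. Of 24 pairs of arrays with 1 number in different groups, 6 deviated together with a correlation over 0.1 (range -0.083 to 0.358). Pairs with different numbers ranged from -0.303 to 0.236. These ranges do not settle whether the numbers pair the samples. The labels do not state that they do, and the main fit used no block. Alternatives were other filters, normalizations, variance models, probe set rules and left-out arrays; counts of genes above 0 or not overlapping, under quantile normalization or without rapamycin Atg7-/- replicate 3, and the lists and correlations without it, were added after seeing the data.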

Additional observations from a re-analysis of the deposited data

Results flagged for a closer look

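In 11 of the 168 gene and group combinations 1 array lay farther from the other 3 than Dixon's 95% limit for 4 values allows. Chance gives about 1 in 20. Values here are log2 signals. In untreated Atg7+/- cells, Cox5a, a complex IV subunit, read 9.84 on replicate 3 against 10.02 to 10.04 on the others, and Cox8b, the muscle isoform of subunit 8, read 3.59 on replicate 1 against 4.06 to 4.13. In untreated Atg7-/- cells, replicate 1 was low for Cox7a2l (8.39 against 8.74 to 8.80) and for Cyc1, cytochrome c1 of complex III (8.94 against 9.02 to 9.03). Replicate 4 of that group was high for Atp5k, subunit e of ATP synthase (10.72 against 10.57 to 10.58), and for Cox7a1, the muscle isoform of subunit 7a (5.13 against 4.32 to 4.33). Replicate 2 was high for Uqcrh, the hinge protein of complex III (9.79 against 9.64 to 9.65). In rapamycin Atg7+/- cells, replicate 1 was high for Cox6b2 (5.04 against 4.70 to 4.76) and low for Sdhd (6.99 against 7.16 to 7.17). In rapamycin Atg7-/- cells, replicate 3 was high for Atp5h (10.76 against 10.60 to 10.62) and replicate 1 low for Sdha (9.06 against 9.27 to 9.29).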

How the results depend on the processing

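Medians of the 42 genes moved by less than 1 SD between arrays (0.055) under every alternative; that for rapamycin in Atg7-/- cells ranged from -0.0055 to 0.068 over left-out arrays. Between untreated genotypes array weights gave 974 called genes, of 527, and left-out arrays 282 to 695; subunit genes called were 2 with the filter at the median of all values, 3 with trended and robust variance, 3 with array weights, and 0 to 2 over left-out arrays. With rapamycin in Atg7+/- cells left-out arrays gave 1554 to 2785 genes and 1 to 6 subunit genes. In Atg7-/- cells subunit calls were 3 with only the arrays compared and 3 to 7 over left-out arrays, and 7 genes, of 1, had all arrays below without rapamycin replicate 3. Between genotypes under rapamycin the genes called were 820 with the filter at the median, 886 with trended and robust variance, 20 with only the arrays compared, and 95 to 790 over left-out arrays. Subunit genes called there were 1 without a filter, 7 with the filter at the median, 1 with quantile normalization, 11 with trended and robust variance, 1 with array weights, 0 with only the arrays compared, 1 with the length trend removed, and 0 to 3 over left-out arrays. The difference of the rapamycin effects gave 0 to 1 called genes over left-out arrays. With the replicate block the genes called were 529, 2492, 3491, 592 and 0 in the order untreated genotypes, rapamycin in Atg7+/-, rapamycin in Atg7-/-, genotypes under rapamycin and difference, and subunit genes 1, 5, 5, 2 and 0; the block ended the calls of Atp5j (adjusted p = 0.0647) and Cox8a (0.0603).

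Of 14 subunit calls, 4 were kept without any 1 array and 3 under every alternative run. Of 1430 single-gene values under alternatives, 1302 kept direction and side of the threshold, 87 lost a call, 10 gained one and 31 changed sign, all uncalled. With quantile normalization these were Atp5g2 with rapamycin in Atg7-/- cells (0.026) and, for the difference of effects, Atp5g3 (-0.00083) and Sdha (-0.0012). Over left-out arrays Atp5g1 ranged from -0.093 to 0.18 between untreated genotypes, from -0.20 to 0.083 with rapamycin in Atg7-/- cells, from -0.0047 to 0.25 between genotypes under rapamycin, and from -0.089 to 0.19 for the difference. With rapamycin in Atg7-/- cells Atp5g2 ranged from -0.062 to 0.037, Atp5g3 from -0.058 to 0.011 and Sdhb from -0.019 to 0.15. Sdhc ranged from -0.071 to 0.018 between untreated genotypes and Sdha from -0.059 to 0.017 under rapamycin. For the difference Atp5g2 ranged from -0.011 to 0.14, Atp5g3 from -0.011 to 0.058 and Sdha from -0.017 to 0.059. The causes were not tested. Each group has 4 arrays, which limits what differences can be called.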

Other observations

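Subunits that the symbol rule does not take gave 1 call among 5 genes. It was made with rapamycin in Atg7-/- cells, where 20.0% of all genes tested were called. Dmac2l, factor B of ATP synthase, averaged 5.08 in untreated and 5.64 in rapamycin Atg7-/- cells (log2 fold change 0.56, SE 0.137, limma adjusted p = 0.00783), and 5.29 and 5.60 in Atg7+/- cells (0.31, adjusted p = 0.141). Cox4i1, the main isoform of the first nuclear subunit of cytochrome oxidase, had genotype differences of 0.20 untreated and 0.27 under rapamycin (adjusted p = 0.232 and 0.0962).

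Among 14 genes of mobile carriers and adenine nucleotide exchange, Pdss2, which makes the side chain of ubiquinone, rose with rapamycin in both genotypes (0.52 and 0.43, limma adjusted p = 0.00506 and 0.0109). Vdac1, the outer membrane channel, fell in Atg7+/- cells (-0.37, adjusted p = 0.0468), and Slc25a3, the phosphate carrier that feeds ATP synthase, fell in Atg7-/- cells (-0.27, adjusted p = 0.0147). Slc25a5, an adenine nucleotide carrier, was higher in Atg7-/- cells under rapamycin (0.32, adjusted p = 0.0441), and not so called without rapamycin Atg7-/- replicate 3 (0.31, adjusted p = 0.0933). No gene of this list was called between untreated genotypes. With rapamycin 1 of the 14 rose and 1 fell in each genotype, where 14.1% and 20.0% of all genes were called. These counts lay near or below that background. Between genotypes under rapamycin 1 was called, where 3.24% of all genes were. The medians of the 14 were 0.13 and 0.11 between genotypes, untreated and under rapamycin, and -0.056 and -0.018 with rapamycin in Atg7+/- and Atg7-/- cells.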
